A study of Mus musculus with 18 samples.

Results

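The kidney transcriptome of defeated mice given fluoxetine (FLX) was compared with that of mice that were never defeated (Ctrl). The comparison took all 6 FLX and all 6 Ctrl mice, 12 of the 18 mice of the series, and every gene with enough counts to be tested, 19946 of the 32675 genes listed. All mice were wild-type C57BL/6 males labelled as 6 weeks old, and 1 right kidney per mouse was sequenced as poly(A) RNA. FLX mice faced an aggressive CD-1 male for 10 min on each of 14 days, a procedure called chronic social defeat stress (CSDS), and received fluoxetine at 10 mg per kg by daily injection into the abdomen. Ctrl mice met no aggressor and had daily handling instead. The other 6 mice (PBS) were defeated in the same way and injected with phosphate-buffered saline, the solvent of the drug. No injection is stated for the Ctrl mice, so that defeat, injection and drug cannot be told apart in FLX versus Ctrl. The study left out 1 PBS mouse for its inflammatory gene expression without naming it, whereas all 6 are kept here. The PBS mice are used below for values set side by side, and FLX versus PBS is the test of the drug among defeated mice. FLX versus Ctrl and PBS versus Ctrl share the Ctrl mice, and FLX versus Ctrl and FLX versus PBS share the FLX mice.

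Fluoxetine blocks the serotonin transporter and is given against depression, and part of the drug and its breakdown products leave the body through the kidney. Defeat by a larger male raises the adrenal stress hormones, and the glucocorticoid receptor that answers them is present in most kidney cells. Kidney cells also carry their own circadian clock. In it the activators BMAL1 (gene Arntl), CLOCK and NPAS2 drive the Per, Cry, Nr1d and Ciart genes, whose products shut the activators off again. Proteins of the clock output (DBP, TEF, HLF and their competitor NFIL3) pass the rhythm on to genes of transport and metabolism.

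The libraries were first checked. Total counts were between 73000203 and 78650116 per mouse in the Ctrl group. FLX replicates 1 and 2 lay in a similar range (74093215 and 79061296), whereas FLX replicates 3 to 6 had only 48928823 to 52073640, so that low genes were measured less precisely there. PBS mice had 72149987 to 78711121, so that the low totals occurred only in the FLX group. Depth thus partly goes along with the group in FLX versus Ctrl and in FLX versus PBS. Whether these libraries were sequenced apart from the others is not stated. The defining genes of the kidney were at like levels in both groups, with medians of 775 and 789 FPKM in Ctrl and FLX for the phosphate carrier gene Slc34a1 and of 904 and 982 FPKM for uromodulin (Umod). FPKM are fragments per kilobase of exon, scaled to the depth of each library, and are given here as the authors deposited them. Ctrl replicate 3 stood apart. In this mouse 1840 of 12459 expressed genes lay more than 0.5 log2 units outside the range of the other mice of its group, against 75 to 397 genes in each of the other 11 mice, each held against its own group. Among the defeated mice without the drug, PBS replicate 6 also stood apart, with the androgen-dependent proximal tubule gene Kap at 4720.0 FPKM against 17873 to 21183 FPKM in the other 5 PBS mice, all of them below the 25573 to 37061 FPKM of Ctrl and the 22020.4 to 34874 FPKM of FLX.

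FLX versus Ctrl gave 680 genes at an adjusted p under 0.05 (edgeR's quasi-likelihood test with Benjamini-Hochberg adjustment), which is 3.41% of the genes tested. Of these, 397 were higher in FLX (1.99%) and 283 lower (1.42%). List counts given below with all mice are to be read against these shares. The changes were mostly small, with a median absolute log2 fold change of 0.57 among called genes and 107 genes beyond 1. The 6 FLX mice did not overlap the 6 Ctrl mice in FPKM for 686 genes (3.44% of those tested), lying above Ctrl for 539 (2.7%) and below for 147 (0.737%), and 392 of the called genes were among them, 264 higher and 128 lower. The split by direction depended on the scaling, with 274 genes higher and 355 lower under upper-quartile factors and 775 higher and 198 lower with no scaling beyond total counts. Levels in FPKM ran slightly higher in FLX than the fitted values, the median log2 difference over all genes being 0.06 in log2(FPKM + 0.1) and -0.01 in the fit, so that FPKM ratios can exceed the fold changes given. Without Ctrl replicate 3, 3454 genes were called (17.1% of 20228 tested), 1688 higher (8.34%) and 1766 lower (8.73%), and all 680 genes were among them. List counts given below without that mouse are to be read against these shares. Every other mouse but FLX replicates 3 and 4 (770 and 484 genes without them) lowered the count by over 1.5 times when left out. The counts were 268, 242, 373, 257 and 387 without Ctrl replicate 1, 2, 4, 5 or 6, and 346, 337, 326 and 361 without FLX replicate 1, 2, 5 or 6. In all 12 of these fits 213 genes were called. For scale, the same test called 300 genes in PBS versus Ctrl (1.5%), 163 higher in PBS (0.817%) and 137 lower (0.687%), and 10 in FLX versus PBS (0.0501%), 4 higher in FLX (0.0201%) and 6 lower (0.0301%). In FLX versus Ctrl, 4102 of the 19946 genes tested had an unadjusted p under 0.05. List counts at an unadjusted p given below for this comparison are to be read against that share. DESeq2 called 1719 genes in FLX versus Ctrl, and its list counts are to be read against that number. In FLX versus PBS, 2306 genes had an unadjusted p under 0.05 and DESeq2 called 482. This count depended on single mice, with 0 genes called without FLX replicate 1, 2, 3, 5 or 6 or PBS replicate 1, 1 or 2 without PBS replicate 5 or 4, 31 without PBS replicate 2 and 87 without PBS replicate 6. For PBS versus Ctrl the counts were 720 without Ctrl replicate 3, 466 without PBS replicate 6, and 102 to 180 without any other Ctrl mouse or PBS replicate 1 or 4.

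**Figure D1:**
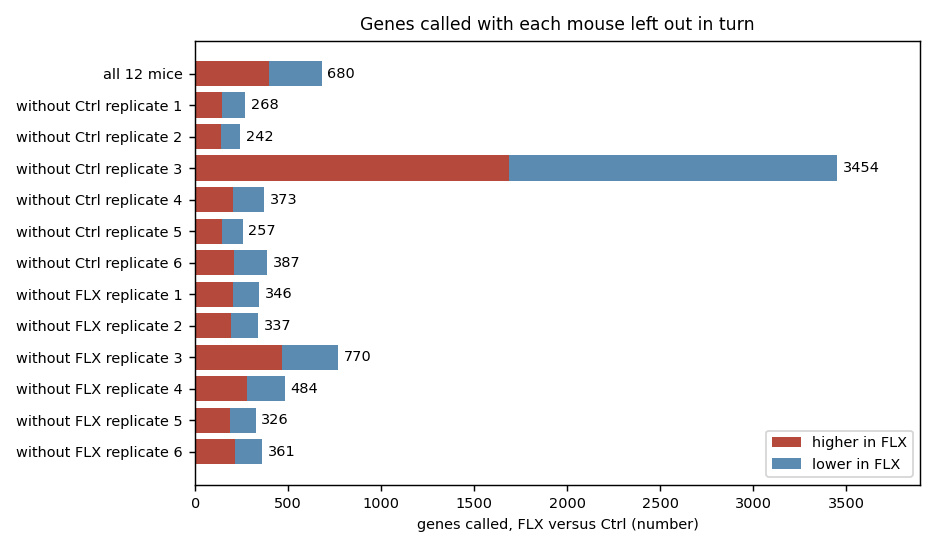
Number of genes called in FLX versus Ctrl (horizontal axis, adjusted p under 0.05) with all 12 mice and with each mouse left out in turn, split into genes higher and lower in FLX. The count is 680 with all mice, between 242 and 770 without any mouse other than Ctrl replicate 3, and 3454 without that mouse.

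The genes of the circadian clock held several of the largest changes. Of 15 core clock genes tested, 4 rose (among them Arntl, Npas2 and Cry1) and 4 fell (Nr1d1, Nr1d2, Ciart and Per3) in FLX versus Ctrl, and of 12 clock output genes 2 rose (Nfil3 and Tsc22d3) and 3 fell (Dbp, Tef and Hlf). Over all genes tested 1.99% were called higher and 1.42% lower. The activator genes Arntl and Npas2 were up and both REV-ERB repressor genes were down. Without Ctrl replicate 3 the core clock counts were 7 and 4, and over all fits that leave out 1 mouse 7 to 11 core clock genes were called. The median log2 fold change was 0.30 over the core clock genes and -0.01 over the output genes, beside -0.01 over all genes tested.

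The sequences just upstream of 4 of these genes are shown because they hold the elements through which the loop is known to act. Windows from 250 bases before to 50 bases after each transcript start (RefSeq, GRCm38.p6, the build of the files' coordinates) were searched on both strands for the E-box CACGTG bound by BMAL1 with CLOCK or NPAS2, for the D-box TTATGTAA or TTACGTAA bound by DBP, TEF, HLF and NFIL3, and for the REV-ERB element bound by the REV-ERB receptors, which is AANT or ATNT, N being any base, followed directly by AGGTCA or GGGTCA. In all, 21 windows were found for 16 of 19 clock genes. Capitals mark the matches, and each sequence is written 5' to 3' on the strand of its gene.
Ciart, chr3:95882179-95882478, minus strand: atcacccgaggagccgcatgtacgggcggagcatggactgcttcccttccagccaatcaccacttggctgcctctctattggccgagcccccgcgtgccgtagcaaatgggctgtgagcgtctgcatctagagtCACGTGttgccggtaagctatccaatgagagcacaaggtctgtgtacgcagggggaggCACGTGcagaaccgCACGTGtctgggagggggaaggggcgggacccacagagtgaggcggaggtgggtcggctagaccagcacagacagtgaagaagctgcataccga
Per3, chr4:151044616-151044915, minus strand: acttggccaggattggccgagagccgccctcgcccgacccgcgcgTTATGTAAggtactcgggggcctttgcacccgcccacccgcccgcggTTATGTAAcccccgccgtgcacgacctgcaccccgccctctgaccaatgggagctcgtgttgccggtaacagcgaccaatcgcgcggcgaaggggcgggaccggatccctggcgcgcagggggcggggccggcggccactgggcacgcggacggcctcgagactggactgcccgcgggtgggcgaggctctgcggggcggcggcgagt
Cry1, chr10:85185005-85185304, minus strand: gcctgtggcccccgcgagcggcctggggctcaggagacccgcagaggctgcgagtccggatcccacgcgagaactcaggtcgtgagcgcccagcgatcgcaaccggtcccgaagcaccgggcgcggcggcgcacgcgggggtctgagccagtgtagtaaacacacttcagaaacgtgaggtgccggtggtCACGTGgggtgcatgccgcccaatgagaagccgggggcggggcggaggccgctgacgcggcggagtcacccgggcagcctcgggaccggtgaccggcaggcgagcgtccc
Arntl, chr7:113207261-113207560, plus strand: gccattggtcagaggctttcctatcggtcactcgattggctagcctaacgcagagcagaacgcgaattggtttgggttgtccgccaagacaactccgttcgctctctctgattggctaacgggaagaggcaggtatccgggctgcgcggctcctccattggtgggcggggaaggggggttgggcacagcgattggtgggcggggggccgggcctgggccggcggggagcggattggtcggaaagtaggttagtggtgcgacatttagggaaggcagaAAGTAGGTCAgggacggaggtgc
The Ciart window held 3 E-boxes, starting at -116, -58 and -44 from the transcript start, and the Cry1 window held 1 at -60. E-boxes were found in 6 of the 21 clock windows, those of 5 genes (Per1, Cry1, Bhlhe41, Ciart and Tef), against 7.15% of 32851 windows of all genes. The Per3 window held 2 D-boxes at -205 and -158. This element was found in 1 of the 21 clock windows and in 1.06% of all windows. The Arntl window shown held 1 REV-ERB element at 27 bases after the start. That element was likewise found in 1 of the 21 clock windows and in 0.773% of all windows. No match was found in the other Arntl window or in those of Dbp, Nr1d1, Nr1d2, Npas2 and Nfil3. The 4 windows shown were chosen for their matches. Such a match is a run of letters and not a measured binding site.

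Dbp (ENSMUSG00000059824, chromosome 7, 45705088 to 45710203), which encodes an output activator at D-boxes, was at 9.39 to 22.1 FPKM (median 15.1) in Ctrl, 0.694 to 1.69 FPKM (median 1.06) in FLX and 3.23 to 23.0 FPKM (median 5.88) in PBS. Every FLX mouse lay below every Ctrl and every PBS mouse. The log2 fold change was -3.88 in FLX versus Ctrl (standard error, SE, 0.26; edgeR, adjusted p = 6.96e-06), the smallest adjusted p of the comparison, beside -0.91 in PBS versus Ctrl (adjusted p = 0.313) and -2.97 in FLX versus PBS (adjusted p = 0.0552, and 0.0152 without PBS replicate 6). Nfil3 (ENSMUSG00000056749, chromosome 13, 52967209 to 52981073) encodes the repressor at the same element, and it moved the other way. It was at 1.65 to 4.43 FPKM (median 1.9) in Ctrl and 7.25 to 17.2 FPKM (median 13.5) in FLX, without overlap, and the log2 fold change came to 2.40 (adjusted p = 0.000890 with edgeR, SE 0.27). In PBS mice, at 5.63 to 12.3 FPKM (median 8.15), the log2 fold change of Nfil3 was 1.87 (adjusted p = 0.00523). Values after ± below are standard errors. Tef fell from a median of 27.2 to 17.3 FPKM (log2 fold change -0.78 ± 0.10, adjusted p = 0.00188) and Hlf from 9.62 to 8.20 FPKM (log2 fold change -0.39 ± 0.09, adjusted p = 0.0393). The Hlf call was lost without Ctrl replicate 1, 2, 5 or 6 or FLX replicate 1, 3, 4, 5 or 6 (adjusted p up to 0.0910). Dbp and Tef each overlap another gene on the opposite strand (Sphk2 and Gm17597), and whether counting used strand is not stated.

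Among the activators, Arntl (ENSMUSG00000055116, chromosome 7, 113207465 to 113314126) was at 0.652 to 1.18 FPKM (median 0.881) in Ctrl and 2.42 to 3.94 FPKM (median 3.38) in FLX, and the groups did not overlap. Its log2 fold change was 1.73 (adjusted p = 0.000152 with edgeR, SE 0.15). PBS mice were at 0.620 to 1.94 FPKM (median 1.64), where they overlapped Ctrl and lay below every FLX mouse. Npas2, whose product can stand in for CLOCK, was at 0.464 to 1.46 FPKM (median 0.851) in Ctrl and 1.86 to 2.93 FPKM (median 2.57) in FLX (log2 fold change 1.39 ± 0.22, adjusted p = 0.00523), again without overlap, and its PBS median was 0.839 FPKM. Clock itself had medians of 2.13 and 3.00 FPKM and was not called (log2 fold change 0.35 ± 0.10, adjusted p = 0.0751, and 0.00393 without Ctrl replicate 3). Hlf and Clock, and below Per2, Cry2 and Egr1, were added to the text after their values were seen.

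Among the repressors, Nr1d1 (ENSMUSG00000020889, chromosome 11, 98767932 to 98775333), which encodes REV-ERB alpha, was at 10.5 to 24.0 FPKM (median 13.8) in Ctrl and 2.10 to 5.37 FPKM (median 3.13) in FLX, with every FLX mouse below every Ctrl mouse. Its log2 fold change was -2.24 (adjusted p = 0.000890 with edgeR, SE 0.25). Nr1d2, the gene of REV-ERB beta, went from 10.1 to 18.9 FPKM (median 11.1) to 2.57 to 6.74 FPKM (median 5.61) (log2 fold change -1.32 ± 0.20, adjusted p = 0.00454). In PBS versus Ctrl the log2 fold changes of Nr1d1 and Nr1d2 were -0.15 and -0.03 (adjusted p = 0.865 and 0.947), and in FLX versus PBS -2.10 and -1.29 (adjusted p = 0.0628 and 0.0628, and 0.0134 and 0.0311 without PBS replicate 6). Ciart (ENSMUSG00000038550, chromosome 3, 95878503 to 95882231), with the 3 E-boxes shown above, was at 0.659 to 1.72 FPKM (median 1.15) in Ctrl, 0.136 to 0.395 FPKM (median 0.268) in FLX and 1.14 to 5.47 FPKM (median 1.84) in PBS. FLX mice were below all mice of both other groups. The log2 fold change of Ciart was -2.10 in FLX versus Ctrl (adjusted p = 0.00300) and -3.23 in FLX versus PBS (adjusted p = 0.0467, edgeR), and it overlaps C920021L13Rik on the opposite strand. Per3, with the 2 D-boxes, fell from 1.19 to 2.64 FPKM (median 1.62) to 0.637 to 0.874 FPKM (median 0.719) (log2 fold change -1.26 ± 0.16, adjusted p = 0.00147).

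Cry1 stood with the activators in direction although its product is a repressor. Cry1 (ENSMUSG00000020038, chromosome 10, 85131700 to 85185064) was at 0.605 to 1.26 FPKM (median 0.778) in Ctrl, 2.01 to 5.49 FPKM (median 3.34) in FLX and 1.2 to 2.06 FPKM (median 1.68) in PBS. FLX and Ctrl did not overlap, and the log2 fold change was 1.94 (adjusted p = 0.00108 with edgeR, SE 0.23) beside 0.94 in PBS versus Ctrl (adjusted p = 0.0379). Per1, a clock gene that glucocorticoids also induce, was at 1.82 to 4.12 FPKM (median 3.04) in Ctrl, 3.83 to 7.38 FPKM (median 5.07) in FLX and 7.56 to 16.4 FPKM (median 14.1) in PBS, and its log2 fold change of 0.78 narrowly missed the threshold in FLX versus Ctrl (adjusted p = 0.0508, and 0.0131 without Ctrl replicate 3). In PBS versus Ctrl that of Per1 was 2.11 (adjusted p = 0.00112). Per2 and Cry2 had log2 fold changes of 0.62 and -0.52 and were not called (adjusted p = 0.122 and 0.119). No source used here gives the hour at which each kidney was taken, so that a difference in collection time and a difference in the phase of the clock cannot be told apart.

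**Figure D2:**
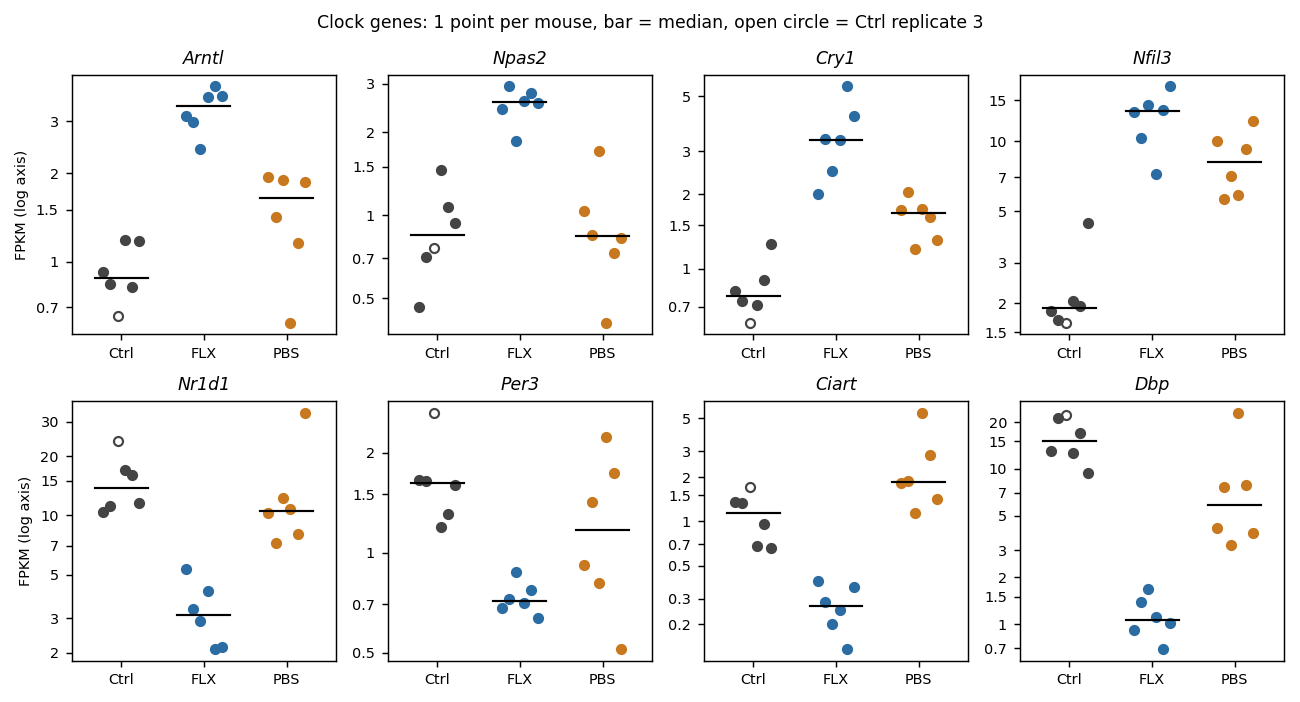
FPKM (log axis) of 8 clock genes in each mouse of the Ctrl, FLX and PBS groups, with 1 point per mouse, bars for group medians and an open circle for Ctrl replicate 3. FLX mice lie above every Ctrl mouse for Arntl, Npas2, Cry1 and Nfil3 and below every Ctrl mouse for Nr1d1, Per3, Ciart and Dbp.

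Some of the genes known to be induced by glucocorticoids were raised in FLX mice. Of 16 such genes tested, 5 rose (Zbtb16, Tsc22d3, Cdkn1a, Sgk1 and Ddit4) and 0 fell in FLX versus Ctrl, with a median log2 fold change of 0.40 and 13 of 16 genes above 0. In PBS versus Ctrl 9 of the 16 were higher, with a median of 1.56, and in FLX versus PBS 0 were called by edgeR, with a median of -1.05, 13 at an unadjusted p under 0.05 and 10 called by DESeq2. Over fits that leave out 1 mouse 4 to 6 of the genes were called in FLX versus Ctrl. Of all genes tested, 1.99% were called higher and 1.42% lower in FLX versus Ctrl, and 0.817% higher in PBS versus Ctrl.

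Zbtb16 (ENSMUSG00000066687, chromosome 9, 48654297 to 48836222), a transcription repressor gene with low levels at rest, was at 0.0858 to 0.238 FPKM (median 0.120) in Ctrl, 0.477 to 0.956 FPKM (median 0.593) in FLX and 0.512 to 3.51 FPKM (median 0.956) in PBS. Both defeated groups lay wholly above Ctrl. Its log2 fold change was 2.18 in FLX versus Ctrl (adjusted p = 0.00147, SE 0.28) and 3.44 in PBS versus Ctrl (adjusted p = 0.00523, edgeR). Tsc22d3, the gene of the glucocorticoid-induced leucine zipper, was at 4.59 to 8.61 FPKM (median 6.42) in Ctrl and 11.1 to 17.7 FPKM (median 13.4) in FLX, again without overlap, with nearly equal log2 fold changes of 1.03 and 1.07 in FLX and PBS versus Ctrl (adjusted p = 0.00306 and 0.00990). In FLX versus PBS that of Tsc22d3 was -0.04 (adjusted p = 0.952, SE 0.15). Cdkn1a, which encodes the cell cycle inhibitor p21, had medians of 2.00, 5.04 and 11.8 FPKM in Ctrl, FLX and PBS, with log2 fold changes of 1.29 and 2.68 against Ctrl (adjusted p = 0.00688 and 0.00523). It overlaps 1700023B13Rik on the opposite strand.

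Sgk1, a kinase gene through which corticosteroids raise sodium uptake, was at 9.17 to 21.4 FPKM (median 11.4) in Ctrl and 24.0 to 36.2 FPKM (median 26.6) in FLX without overlap (log2 fold change 1.03 ± 0.18, adjusted p = 0.00988), and at a median of 46.9 FPKM in PBS (log2 fold change 1.71, adjusted p = 0.00668). Ddit4, an inhibitor gene of mTOR signalling, had a median of 9.66 FPKM in Ctrl and 21.1 in FLX (log2 fold change 1.15 ± 0.28, adjusted p = 0.0412), and its call was lost without Ctrl replicate 1, 2, 5 or 6 or FLX replicate 1 or 2 (adjusted p up to 0.0945). Fkbp5, a co-chaperone gene of the receptor and the usual marker of its activity, was at medians of 4.51, 5.92 and 11.4 FPKM. It was not called in FLX versus Ctrl (log2 fold change 0.45 ± 0.18, adjusted p = 0.184) and was called in PBS versus Ctrl (log2 fold change 1.53, adjusted p = 0.0121), while FLX versus PBS gave -1.08 (adjusted p = 0.164). The receptor gene itself, Nr3c1, was at medians of 7.57 and 8.12 FPKM in Ctrl and FLX (log2 fold change -0.07 ± 0.09, adjusted p = 0.707).

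Several chaperone genes rose. Of 14 heat shock and chaperone genes tested, 5 rose (Hspa1a, Hspa1b, Hsph1, Dnajb1 and Bag3) and 0 fell, with a median log2 fold change of 0.49, and 8 rose without Ctrl replicate 3. Of all genes tested, 1.99% were called higher with all mice and 8.34% without Ctrl replicate 3. Hspa1a (ENSMUSG00000091971, chromosome 17, 34969190 to 34972156), the inducible HSP70 gene, was at 1.84 to 5.62 FPKM (median 2.66) in Ctrl and 6.50 to 16.2 FPKM (median 9.45) in FLX, and no FLX mouse overlapped Ctrl (log2 fold change 1.78 ± 0.28, adjusted p = 0.00441). Its near-identical copy Hspa1b, named after its values were seen, had a log2 fold change of 1.63, and reads of these 2 genes may be split between them. Dnajb1, an HSP40 cofactor, was at 5.54 to 7.27 FPKM (median 6.59) in Ctrl and 8.61 to 17.2 FPKM (median 12.2) in FLX (log2 fold change 0.89 ± 0.15, adjusted p = 0.00698). Bag3, which couples HSP70 to autophagy, was at 5.52 to 8.50 FPKM (median 6.13) and 9.53 to 13.1 FPKM (median 11.2) (log2 fold change 0.73 ± 0.11, adjusted p = 0.00327). Hsph1, an HSP110 gene, rose by 0.85 on the log2 scale (adjusted p = 0.0187), and this call was lost without Ctrl replicate 2 or 5 (adjusted p up to 0.0529). For Hspa1a, Dnajb1, Bag3 and Hsph1 the log2 fold changes in PBS versus Ctrl were 1.96, 1.39, 0.65 and 0.84, of which only that of Bag3 was called (adjusted p = 0.0328). In FLX versus PBS they lay between -0.50 and 0.08.

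The immediate early genes, which answer growth factors and stress within minutes, went both ways. Of 21 tested, 3 rose (Klf4, Klf2 and Atf3) and 2 fell (Ier2 and Junb), beside 1.99% and 1.42% of all genes tested. Klf2, which blood flow induces in endothelium, was at 2.12 to 6.28 FPKM (median 4.17) in Ctrl and 7.60 to 10.6 FPKM (median 9.03) in FLX, with no overlap (log2 fold change 1.04 ± 0.19, adjusted p = 0.0117). Klf4 was likewise apart, at 1.23 to 1.70 FPKM (median 1.47) and 2.47 to 3.43 FPKM (median 2.83) (log2 fold change 0.87 ± 0.11, adjusted p = 0.00158). Ier2 fell from 11.6 to 14.8 FPKM (median 14.2) to 6.15 to 8.22 FPKM (median 7.18) (log2 fold change -1.02 ± 0.10, adjusted p = 0.000167), one of the 5 smallest adjusted p of the comparison. The calls of Junb (log2 fold change -0.85 ± 0.22, adjusted p = 0.0477) and of Atf3, a stress-induced factor gene (log2 fold change 0.94 ± 0.24, adjusted p = 0.0485), were lost without Ctrl replicate 1, 2, 4 or 5 or FLX replicate 1, 2, 3, 5 or 6 for Junb and without Ctrl replicate 1, 2, 4, 5 or 6 or FLX replicate 1, 2, 3, 4 or 5 for Atf3 (adjusted p up to 0.115 and 0.110). Fos and Egr1 had log2 fold changes of -1.27 and -0.85 and were not called (adjusted p = 0.0724 and 0.0702). Nr4a3, an orphan receptor gene that the study discusses, was at 0.0352 to 0.138 FPKM (median 0.0464) in Ctrl, 0.0151 to 0.401 FPKM (median 0.233) in FLX and 0.129 to 3.82 FPKM (median 0.912) in PBS. It was called in PBS versus Ctrl (log2 fold change 4.45, adjusted p = 0.0144) and not in FLX versus Ctrl (log2 fold change 1.82 ± 0.54, adjusted p = 0.0816).

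**Figure D3:**
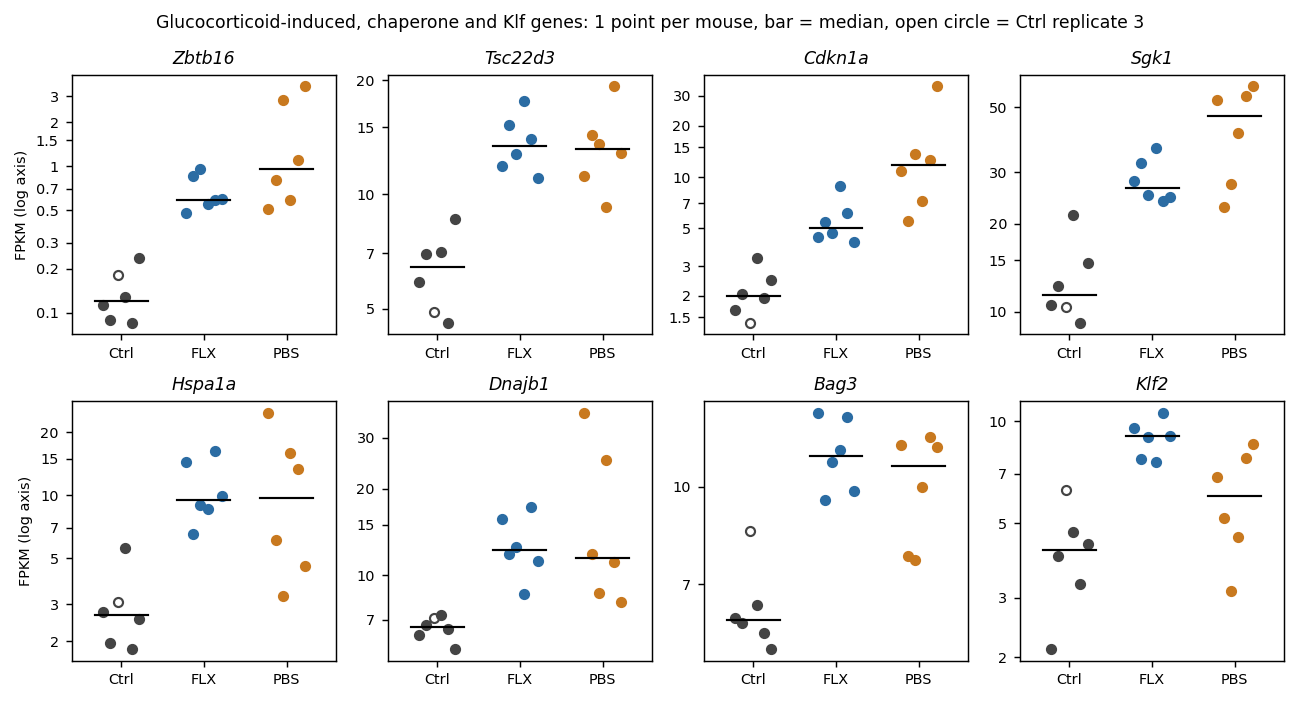
FPKM (log axis) of 4 glucocorticoid-induced genes, 3 chaperone genes and Klf2 in each mouse of the Ctrl, FLX and PBS groups, with 1 point per mouse, bars for group medians and an open circle for Ctrl replicate 3. In all 8 genes every FLX mouse lies above every Ctrl mouse, and the PBS medians lie above the Ctrl medians.

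No gene of the immune cell, cytokine or interferon lists was called in FLX versus Ctrl. The lists for neutrophils (9 tested), macrophages (10), T cells (7), B and plasma cells (8), acute cytokines and NF-kB feedback (15), interferon-induced genes (16) and antigen presentation (12) held 0 called genes with edgeR, and the same lists held 2, 0, 0, 0, 1, 0 and 0 genes higher in PBS versus Ctrl. Over all genes tested the shares were 3.41% called in FLX versus Ctrl and 0.817% higher in PBS versus Ctrl. At such shares lists of this size hold few calls or none. In the same order, 2, 2, 0, 1, 1, 1 and 1 genes had an unadjusted p under 0.05 in FLX versus Ctrl, and DESeq2 called 0, 2, 0, 1, 0, 0 and 0. Over all 19946 genes tested, 4102 had an unadjusted p under 0.05 in FLX versus Ctrl. The numbers called without Ctrl replicate 3 were 1 for macrophages and 0 for the others. In the interferon list the median log2 fold change was -0.47, with 1 of 16 genes above 0. The summed level of that list was 233 FPKM in Ctrl replicate 6 and 60.9 to 103 FPKM in the other Ctrl mice. S100a8, which encodes a calcium-binding protein of myeloid cells, was at 0 to 1.0 FPKM (median 0.536) in Ctrl, 0.0833 to 1.2 FPKM (median 0.331) in FLX and 1.82 to 22.1 FPKM (median 3.94) in PBS, where 1.82 to 7.65 was the range without PBS replicate 6. The FLX and Ctrl mice overlapped widely, and the log2 fold change came to -0.19 (adjusted p = 0.920, SE 0.74), beside 3.74 in PBS versus Ctrl (adjusted p = 0.0325). Its partner S100a9 had 0.21 and 3.35 in the same 2 comparisons (adjusted p = 0.901 and 0.0117). The median log2 fold change of neutrophil genes was 0.21 in FLX versus Ctrl, 3.10 in PBS versus Ctrl and -3.12 in FLX versus PBS, the last with 0 of 9 genes called by edgeR, 7 at an unadjusted p under 0.05 and 3 called by DESeq2. The summed level of the 12 neutrophil genes was 1.59 to 3.73 FPKM in Ctrl, 0.679 to 6.03 in FLX and 7.43 to 69.1 in PBS (7.43 to 26.7 without PBS replicate 6). In bulk tissue fewer cells of a type and less RNA per cell cannot be told apart, here and for the cell markers below.

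The chemokine gene Cxcl1, the sphingosine kinase gene Sphk1, the chemokine receptor gene Ccr1 and the prolactin receptor gene Prlr had log2 fold changes of 0.03, -0.11, 0.22 and 0.31 in FLX versus Ctrl, none of them called (adjusted p = 0.983, 0.839, 0.823 and 0.548). In PBS versus Ctrl, Sphk1 and Prlr were higher (1.44 and 1.42, adjusted p = 0.0325 and 0.0331). With standard errors up to 0.50 for Cxcl1, the absence of a call does not show that FLX and Ctrl were equal. Adgre1, the macrophage marker F4/80, was at 0.754 to 1.19 FPKM (median 0.820) in Ctrl and 1.07 to 3.32 FPKM (median 1.43) in FLX and was called without Ctrl replicate 3 (adjusted p = 0.0746 with all mice and 0.0296 without it). Irf7, a factor of the interferon response, reached 34.4 FPKM in 1 Ctrl mouse, replicate 6, against a Ctrl median of 5.63 and an FLX range of 3.71 to 6.20 FPKM. Of the 14 complement genes 1 was called, C1ra (log2 fold change 0.53 ± 0.14, adjusted p = 0.0496), 4 by DESeq2, 0 were called under upper-quartile factors, and the call of C1ra was held in 2 of the 12 fits that leave out a mouse (adjusted p up to 0.118). Without Ctrl replicate 3, 5 of the 14 were called. C3 was at 1.95 to 6.52 FPKM (median 3.62) in Ctrl, 2.69 to 36.9 FPKM (median 7.16) in FLX and 4.43 to 57.7 FPKM (median 13.8) in PBS (log2 fold change 1.59 ± 0.54, adjusted p = 0.120 in FLX versus Ctrl). Of 16 tubule injury genes 2 rose, Cdkn1a and Vcam1 (log2 fold change 0.83 ± 0.21, adjusted p = 0.0447), and the call of Vcam1 was lost without Ctrl replicate 1, 2, 4, 5 or 6 or FLX replicate 1, 2, 5 or 6 (adjusted p up to 0.106). The median log2 fold change of the 16 injury genes was 0.45, with 14 above 0, and in PBS versus Ctrl it was 1.46. Havcr1, the injury marker KIM-1, was at medians of 0.660 and 0.629 FPKM and was not called (adjusted p = 0.773).

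Of the nephron markers listed, 2 distal ones rose and none of the 13 proximal ones was called, beside 1.99% of all genes called higher and 1.42% lower. Proximal tubule genes of other lists were called, among them Slc6a19 (lower) and Slc7a12 (higher), given below. Of 13 proximal tubule markers edgeR called 0 (1 without Ctrl replicate 3, 2 at an unadjusted p under 0.05, 1 by DESeq2), and of 7 loop of Henle markers it called 0 (0 in each of the same counts). Of 7 distal convoluted and connecting tubule markers 2 rose, Trpm6 and Trpv5, and 3 rose without Ctrl replicate 3, the third being the sodium chloride carrier gene Slc12a3 (adjusted p = 0.447 with all mice and 0.0322 without that one). Under upper-quartile factors 1 was called. Of 8 principal cell markers of the collecting duct 1 rose (Scnn1g), and of 7 intercalated cell markers edgeR called 0, as did DESeq2, with 0 at an unadjusted p under 0.05. Trpm6, the magnesium channel gene, was at 1.12 to 2.00 FPKM (median 1.36) in Ctrl, 1.97 to 2.96 FPKM (median 2.24) in FLX and 1.77 to 3.13 FPKM (median 2.45) in PBS. Only Ctrl replicate 3, the highest Ctrl mouse, reached into the FLX range. The log2 fold change of Trpm6 was 0.65 (adjusted p = 0.0191, lost without Ctrl replicate 2 at 0.0519) beside 0.83 in PBS versus Ctrl (adjusted p = 0.0188). Trpv5, the calcium channel gene of the same segment, had 0.52 and 0.83 (adjusted p = 0.0471 and 0.00762), and the FLX call was lost without Ctrl replicate 1, 2, 4, 5 or 6 or FLX replicate 1, 2, 5 or 6 (adjusted p up to 0.110).

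Of 20 salt and water transport genes 4 rose (Sgk1, Avpr1a, Scnn1g and Scnn1a) and 0 fell, and without Ctrl replicate 3 the numbers were 8 and 1, beside 8.34% and 8.73% of all genes. Under upper-quartile factors 2 rose. Scnn1g, the gamma subunit of the epithelial sodium channel, was at 7.51 to 10.6 FPKM (median 9.24) in Ctrl and 11.3 to 14 FPKM (median 12.7) in FLX. The 2 ranges did not overlap although the difference was small (log2 fold change 0.37 ± 0.09, adjusted p = 0.0449), and the alpha subunit gene Scnn1a behaved alike in size (log2 fold change 0.35 ± 0.09, adjusted p = 0.0460). Both calls were fragile, that of Scnn1g being lost without Ctrl replicate 1, 2, 4 or 5 or FLX replicate 1, 2, 5 or 6 and that of Scnn1a without Ctrl replicate 1, 2, 4, 5 or 6 or FLX replicate 1, 2, 4, 5 or 6 (adjusted p up to 0.107 and 0.109). Avpr1a, a vasopressin receptor gene, rose from a median of 2.47 to 4.21 FPKM (log2 fold change 0.65 ± 0.14, adjusted p = 0.0219, lost without Ctrl replicate 1 or FLX replicate 2 or 5, adjusted p up to 0.0548). Aqp2, the water channel of the collecting duct, was at 58.3 to 357 FPKM (median 123) in Ctrl and 95.6 to 173 FPKM (median 124) in FLX and was not called (adjusted p = 0.669). The renin gene Ren1 had medians of 41.3 and 58.7 FPKM and was not called (log2 fold change 0.48 ± 0.17, adjusted p = 0.134), nor was any other of the 9 renin-angiotensin genes tested (1 higher without Ctrl replicate 3, 2 at an unadjusted p under 0.05, 0 by DESeq2).

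Cyp24a1 (ENSMUSG00000038567, chromosome 2, 170482708 to 170497145) encodes the enzyme that breaks down active vitamin D. It was at 12.6 to 42.9 FPKM (median 36.9) in Ctrl, 7.53 to 16.7 FPKM (median 13.3) in FLX and 10.6 to 71.4 FPKM (median 33.7) in PBS. All Ctrl mice but 1 lay above all FLX mice, and that mouse, Ctrl replicate 6, at 12.6 FPKM, lay inside the FLX range. The log2 fold change was -1.55 in FLX versus Ctrl (adjusted p = 0.00688 with edgeR, SE 0.26), 0.07 in PBS versus Ctrl (adjusted p = 0.945) and -1.62 in FLX versus PBS (adjusted p = 0.0870). Pfdn4 overlaps it on the opposite strand. Among the 14 phosphate, vitamin D and calcium genes tested, Cyp24a1 fell and Trpv5 rose.

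Amino acid transporters changed in both directions, 2 of 17 rising (Slc7a12 and Slc38a2) and 2 falling (Slc6a19 and Slc7a9). Slc7a12 (ENSMUSG00000039710, chromosome 3, 14480697 to 14505830), a transporter gene with higher levels in female than in male mouse kidney, was at 1.46 to 2.81 FPKM (median 1.77) in Ctrl, 5.86 to 14.9 FPKM (median 7.46) in FLX and 0.708 to 28.7 FPKM (median 21.9) in PBS. All FLX mice were above all Ctrl mice, and the log2 fold change came to 2.12 (adjusted p = 0.000890 with edgeR, SE 0.25). In PBS versus Ctrl it was 3.23 (adjusted p = 0.0144, and 2.54e-05 without PBS replicate 6, the mouse at 0.708 FPKM), and in FLX versus PBS -1.12 (adjusted p = 0.466, and 0.0454 without that mouse). Slc6a19, the main neutral amino acid carrier of the proximal brush border, fell from 39.2 to 71.0 FPKM (median 54.9) to 25.4 to 36.1 FPKM (median 31.1) (log2 fold change -0.94 ± 0.13, adjusted p = 0.00272), with no overlap, and its PBS median was 50.4 FPKM. The antisense gene Slc6a19os overlaps it. Slc7a9, the light chain of the cystine carrier, went from 33.0 to 47.4 FPKM (median 35.7) to 26.6 to 32.1 FPKM (median 28.8) (log2 fold change -0.46 ± 0.10, adjusted p = 0.0231, lost without Ctrl replicate 5 or FLX replicate 5, adjusted p up to 0.0617). Slc38a2, a carrier induced by amino acid shortage, rose from 3.68 to 5.26 FPKM (median 4.39) to 5.90 to 9.09 FPKM (median 7.01) (log2 fold change 0.60 ± 0.11, adjusted p = 0.0136) and reached a median of 7.54 FPKM in PBS.

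Slc7a12 was the 1 gene called by edgeR of the 16 female-biased proximal tubule genes tested (2 by DESeq2), and 0 of 19 male-biased genes were called in FLX versus Ctrl (4 at an unadjusted p under 0.05, 0 by DESeq2), where 5 were lower in PBS versus Ctrl. The median log2 fold change of the male-biased genes was -0.17 in FLX versus Ctrl, -0.51 in PBS versus Ctrl and 0.31 in FLX versus PBS, the last with 1 called gene, 5 by DESeq2. Kap, the androgen-dependent gene with the highest level of the list, showed a difference of -0.36 on the log2 scale (adjusted p = 0.163) in FLX versus Ctrl and -0.92 in PBS versus Ctrl (adjusted p = 0.112, and 0.00584 without PBS replicate 6).

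**Figure D4:**
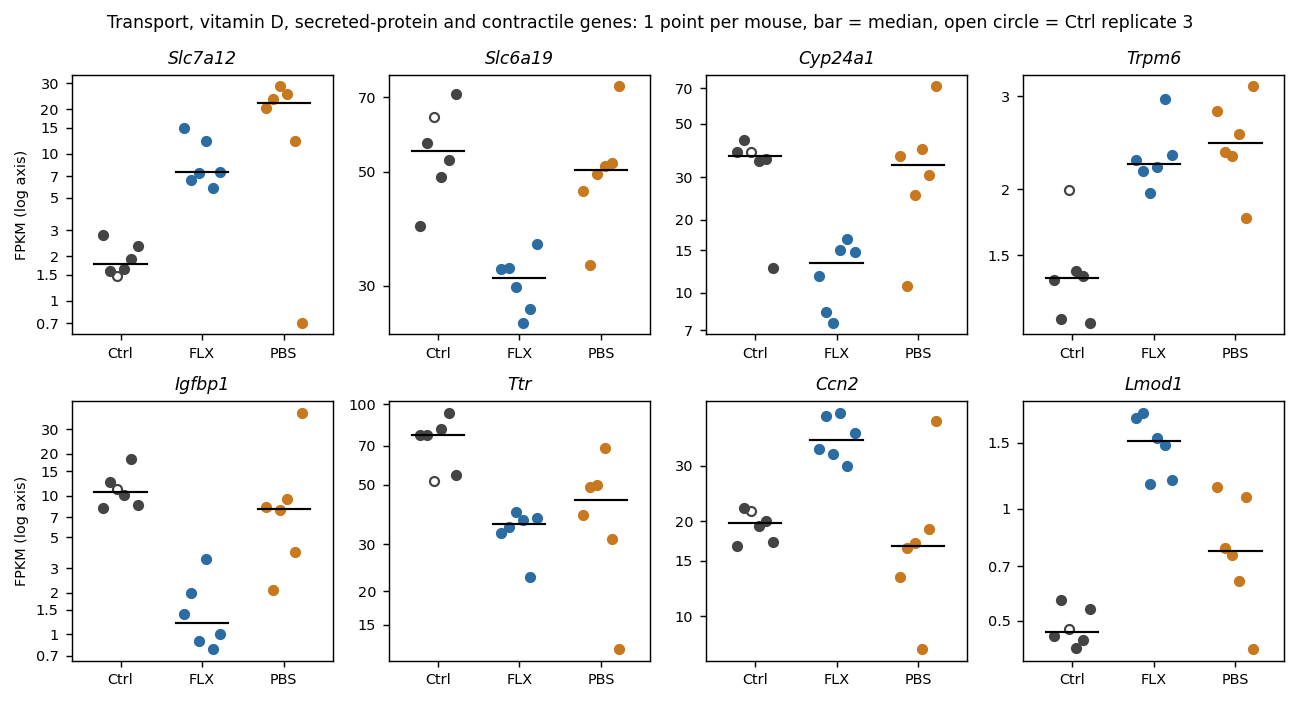
FPKM (log axis) of 4 tubule genes (Slc7a12, Slc6a19, Cyp24a1, Trpm6), 2 genes of secreted proteins (Igfbp1, Ttr), the matrix gene Ccn2 and the smooth muscle gene Lmod1 in each mouse of the Ctrl, FLX and PBS groups, with 1 point per mouse, bars for group medians and an open circle for Ctrl replicate 3. FLX and Ctrl mice do not overlap in Slc7a12, Slc6a19, Igfbp1, Ttr, Ccn2 and Lmod1, whereas 1 Ctrl mouse reaches the FLX range in Cyp24a1 and in Trpm6.

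Genes that handle drugs were searched because fluoxetine is cleared by oxidation and, in other tissues, gathers in lysosomes. Of 13 genes of xenobiotic-induced cytochrome P450 enzymes and transport, edgeR called 0 (2 higher and 1 lower without Ctrl replicate 3), and of 20 genes of lysosomes and phospholipid storage it also called 0 (1 and 4 without that mouse, where 8.34% of all genes were higher and 8.73% lower). At an unadjusted p under 0.05 the numbers were 4 and 5, and DESeq2 called 3 and 2. Their medians were -0.03 and -0.08. Lamp1, a lysosomal membrane gene, was at medians of 382 and 368 FPKM. Cyp2b10, the standard target of drug-sensing receptors, was below 1 FPKM in all Ctrl and FLX mice and was not called (adjusted p = 0.356). Of 13 organic ion transporters 1 was called (2 lower without Ctrl replicate 3, 3 at an unadjusted p under 0.05, 2 by DESeq2). Slc22a4, an ergothioneine and carnitine carrier, fell (log2 fold change -0.39 ± 0.09, adjusted p = 0.0319, lost without Ctrl replicate 1, 2, 4 or 5 or FLX replicate 2, 4 or 5, adjusted p up to 0.0800), and its log2 fold change came to -0.79 in PBS versus Ctrl (adjusted p = 0.0588).

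Of 16 serotonin and monoamine genes tested, 1 was called (2 by DESeq2), Ido1 (log2 fold change -3.74 ± 0.93, adjusted p = 0.0447), an enzyme gene that diverts tryptophan from serotonin. Its levels were under 0.3 FPKM in all mice, at most 36 counts in a Ctrl mouse and 3 in an FLX mouse, and Ido1 was no longer called without Ctrl replicate 1, 2, 4, 5 or 6 or FLX replicate 1, 2, 3, 4 or 6 (adjusted p up to 0.113). The transporter that the drug blocks, Slc6a4, was at 0.679 to 1.32 FPKM (median 0.916) in Ctrl and 0.725 to 1.26 FPKM (median 1.10) in FLX, and the log2 fold change came to 0.01 (adjusted p = 0.978, SE 0.19). Serotonin receptor genes were low. Htr1b had medians of 0.193 and 0.436 FPKM (log2 fold change 1.27 ± 0.42, adjusted p = 0.109) and Htr2b of 0.0996 and 0.0636 FPKM (adjusted p = 0.944). Of 16 stress hormone receptor genes 1 was called, Mchr1, the receptor of melanin-concentrating hormone (2 without Ctrl replicate 3, 4 at an unadjusted p under 0.05, 2 by DESeq2). Mchr1 was at 0.0720 to 0.377 FPKM (median 0.223) in Ctrl, 0.327 to 1.17 FPKM (median 0.710) in FLX and 0.678 to 3.88 FPKM (median 1.91) in PBS. Its log2 fold change was 1.68 in FLX versus Ctrl (adjusted p = 0.0381), 3.27 in PBS versus Ctrl (adjusted p = 0.00523) and -1.59 in FLX versus PBS (adjusted p = 0.151, edgeR), and the first of these calls was lost without Ctrl replicate 1, 2, 4, 5 or 6 or FLX replicate 1, 2, 3 or 6 (adjusted p up to 0.0890).

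Among secreted proteins, Igfbp1 (ENSMUSG00000020429, chromosome 11, 7197782 to 7202546), a binding protein of insulin-like growth factors that insulin represses, was at 8.08 to 18.4 FPKM (median 10.6) in Ctrl, 0.785 to 3.51 FPKM (median 1.21) in FLX and 2.10 to 39.6 FPKM (median 8.04) in PBS. All FLX mice lay below all Ctrl mice, while the PBS mice spanned both groups. Its log2 fold change was -2.94 (adjusted p = 0.000890 with edgeR, SE 0.35), beside 0.02 in PBS versus Ctrl (adjusted p = 0.990) and -2.96 in FLX versus PBS (adjusted p = 0.0870). Ttr, the thyroid hormone carrier transthyretin, fell from 51.4 to 93.0 FPKM (median 76.7) to 22.6 to 39.6 FPKM (median 35.7) (log2 fold change -1.18 ± 0.17, adjusted p = 0.00300), without overlap. Of 16 plasma protein genes tested, Ttr fell and Fgb, a fibrinogen chain gene under 1 FPKM in both groups, rose (log2 fold change 0.79 ± 0.20, adjusted p = 0.0485, held in 2 of 12 fits that leave out a mouse, adjusted p up to 0.115). Clec2h, a C-type lectin gene, fell from 23.0 to 42.5 FPKM (median 32.6) to 9.49 to 16.8 FPKM (median 14.9) (log2 fold change -1.32 ± 0.17, adjusted p = 0.00147). The PBS mice were at 8.16 to 18.1 FPKM (median 17.1), like the FLX mice below every Ctrl mouse (log2 fold change -1.11, adjusted p = 0.0144).

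Metabolic lists held few called genes. In gluconeogenesis (12 genes tested), fatty acid oxidation (20), hypoxia (12) and cell proliferation (16) 0 genes were called with edgeR, and without Ctrl replicate 3 the numbers were 1, 0, 2 and 1. In the same order, 3, 2, 6 and 3 genes had an unadjusted p under 0.05, and DESeq2 called 1, 0, 4 and 1. Their median log2 fold changes were 0.01, -0.09, 0.15 and -0.45, and 2 of the 16 proliferation genes were above 0. Pck1, the rate-limiting gene of gluconeogenesis, was at medians of 355, 368 and 581 FPKM in Ctrl, FLX and PBS. It was not called in FLX versus Ctrl (log2 fold change -0.03 ± 0.15, adjusted p = 0.932) and was higher in PBS versus Ctrl (0.88, adjusted p = 0.0139). Epo, the erythropoietin gene, was likewise at medians of 0.0334, 0.0687 and 1.3 FPKM, with log2 fold changes of 0.46 and 3.99 against Ctrl (adjusted p = 0.821 and 0.0325). Of 15 Nrf2 targets 2 rose, the heme oxygenase gene Hmox1 (log2 fold change 0.68 ± 0.14, adjusted p = 0.0205, lost without Ctrl replicate 1 or 2, adjusted p up to 0.0531) and the pentose phosphate gene G6pdx (log2 fold change 0.51 ± 0.12, adjusted p = 0.0317, lost without Ctrl replicate 1, 2, 4, 5 or 6 or FLX replicate 4 or 6, adjusted p up to 0.0769), while Nqo1 was not called (adjusted p = 0.324). Hmox1 was also the 1 gene called of 12 genes of metal handling tested (2 higher and 1 lower without Ctrl replicate 3, 5 at an unadjusted p under 0.05, 1 by DESeq2). There Mt1 showed a difference of 0.06 on the log2 scale (adjusted p = 0.830). Of 15 integrated stress response genes Ddit4 and Atf3 rose, and Atf4 had 0.32 (adjusted p = 0.0884).

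In the mitochondrial genome 1 of 13 genes fell, mt-Nd6, the only gene of the list on the light strand (log2 fold change -0.43 ± 0.08, adjusted p = 0.0157), which overlaps mt-Nd5 on the other strand. Of 20 cytosolic ribosomal protein genes 0 were called with all mice and 17 were lower without Ctrl replicate 3 (8.73% of all genes were lower there), and the numbers for 20 nuclear-encoded respiratory chain genes were 0 and 12. With all mice 6 and 8 of them had an unadjusted p under 0.05, and DESeq2 called 0 of each. Their median log2 fold changes were -0.21 and -0.16 with that mouse and -0.32 and -0.26 without it.

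A few genes of vessels and stroma rose. All 8 endothelial markers had a log2 fold change above 0 (median 0.32), and 2 of them, Tek and Flt1, were called (4 without Ctrl replicate 3). Tek, the angiopoietin receptor gene, was at 3.99 to 5.35 FPKM (median 4.65) in Ctrl and 5.43 to 8.61 FPKM (median 7.54) in FLX without overlap (log2 fold change 0.57 ± 0.11, adjusted p = 0.0139). Flt1, a VEGF receptor gene, had 0.66 (adjusted p = 0.0219, lost without Ctrl replicate 1, 2 or 5 or FLX replicate 2, adjusted p up to 0.0593), while Pecam1 was not called (log2 fold change 0.19 ± 0.11, adjusted p = 0.349). All 7 mural and stromal markers were also above 0 (median 0.48), and Acta2, smooth muscle actin, was called. It was at 9.48 to 18.6 FPKM (median 12.6) in Ctrl, 15.3 to 44.7 FPKM (median 26.7) in FLX and 17.4 to 43.9 FPKM (median 26.9) in PBS (log2 fold change 1.12 ± 0.25, adjusted p = 0.0273, lost without Ctrl replicate 1, 2, 5 or 6 or FLX replicate 2, 4 or 5, adjusted p up to 0.0723). The summed level of the 7 mural and stromal genes was 83.9 to 95.7 FPKM in Ctrl, 111.8 to 195 in FLX and 123.7 to 595 in PBS (123.7 to 151 without PBS replicate 6). This sum includes the renin gene Ren1, at 30.4 to 56.7 FPKM in Ctrl, 50.0 to 98.7 in FLX and 452 in PBS replicate 6. The rise was uneven among FLX mice. In replicates 2, 4 and 5 the sum was 164 to 195 FPKM and Acta2 32.2 to 44.7 FPKM. In replicates 1, 3 and 6 they were 111.8 to 126 and 15.3 to 21.3 FPKM. Replicates 2, 4 and 5 also had the most Ucp1, a brown fat gene (12.6 to 65.0 FPKM against 0 to 2.09 FPKM). A link between these levels was not tested.

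Lmod1 (ENSMUSG00000048096, chromosome 1, 135324807 to 135368065), an actin filament gene of smooth muscle, had the clearest change of this kind, from 0.422 to 0.567 FPKM (median 0.465) to 1.17 to 1.81 FPKM (median 1.51). No FLX mouse overlapped Ctrl, and the log2 fold change was 1.54 (adjusted p = 0.000321 with edgeR, SE 0.15). In the matrix list 2 of 16 genes rose, Ccn2 and Fn1, and 7 without Ctrl replicate 3, where 8.34% of all genes were higher. Ccn2, a matrix-associated growth factor gene and a target of YAP, was at 16.7 to 22.1 FPKM (median 19.7) in Ctrl, 29.8 to 44.1 FPKM (median 36.0) in FLX and 7.89 to 41.4 FPKM (median 16.7) in PBS (log2 fold change 0.83 ± 0.11, adjusted p = 0.00147, beside -0.05 in PBS versus Ctrl, adjusted p = 0.949). Without PBS replicate 6 the log2 fold change of Ccn2 in FLX versus PBS was 1.25 (adjusted p = 0.0128), and with it 0.88 (adjusted p = 0.232). Fn1, fibronectin, had 0.78 (adjusted p = 0.0249, lost without Ctrl replicate 1, 2, 4 or 5 or FLX replicate 5, adjusted p up to 0.0617). Ankrd1, another gene that stretch and YAP induce, was at 0.257 to 0.552 FPKM (median 0.322) in Ctrl and 0.568 to 1.35 FPKM (median 1.01) in FLX (log2 fold change 1.39 ± 0.23, adjusted p = 0.00728). Podocyte markers (7 tested) had a median of 0.22 and 0 genes called by edgeR or DESeq2, 3 at an unadjusted p under 0.05, and 3 higher without Ctrl replicate 3.

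Other genes with changes as large were spread over functions. Among called genes with a symbol, a mean of at least 1 FPKM in FLX or Ctrl and groups apart, the 10 largest rises also held Aldh1a1, a retinaldehyde dehydrogenase gene that has a close copy, Aldh1a7 (log2 fold change 1.39 ± 0.29, adjusted p = 0.0208, lost without Ctrl replicate 2 at 0.0556), and Lonrf3 (log2 fold change 1.35 ± 0.19, adjusted p = 0.00271). Under the same limits the 10 largest falls also held Amz1, a metallopeptidase gene (log2 fold change -1.56 ± 0.23, adjusted p = 0.00306), Tfap4, a transcription factor gene (log2 fold change -1.25 ± 0.20, adjusted p = 0.00468), and CT010467, a symbol shared by more than 1 gene of the table (log2 fold change -1.51 ± 0.21, adjusted p = 0.00230), so that its reads are uncertain. Tmem106a, a membrane protein gene, had one of the 5 smallest adjusted p at a modest fold, from 29.3 to 34.1 FPKM (median 32.7) to 19.1 to 22.6 FPKM (median 21.3) (log2 fold change -0.69 ± 0.06, adjusted p = 0.000152).

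The 3 comparisons can now be set side by side for the genes that stayed changed under the drug. Among called genes with a mean of at least 1 FPKM in FLX or Ctrl, the 6 with the smallest p that were called in the same direction in PBS versus Ctrl were Nfil3, Slc7a12, Dnajb4, Cry1, Clec2h and Lmbr1l. Dnajb4, a chaperone cofactor gene outside the list above, was at 1.38 to 2.22 FPKM (median 1.63) in Ctrl, 2.90 to 3.79 FPKM (median 3.21) in FLX and 2.17 to 5.26 FPKM (median 3.06) in PBS, with log2 fold changes of 0.83 and 1.02 against Ctrl (adjusted p = 0.000952 and 0.0404). Lmbr1l, a membrane receptor gene, fell by less, with -0.66 and -0.37 (adjusted p = 0.00188 and 0.0482). The tests of FLX versus PBS for these 6 genes gave adjusted p values between 0.0879 (Cry1) and 0.805 (Dnajb4), which does not show that the defeated groups were equal.

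Genes called in FLX versus Ctrl and, in the same direction, in FLX versus PBS were few. Those with a mean of at least 1 FPKM in FLX or Ctrl were Ciart, CT010467 and Rhobtb1, of the 10 genes called in FLX versus PBS. The reads of CT010467 are uncertain, as given above. No gene was called in FLX versus PBS without FLX replicate 1, 2, 3, 5 or 6 or PBS replicate 1. Rhobtb1 was at 2.64 to 5.68 FPKM (median 4.12) in Ctrl, 6.66 to 8.89 FPKM (median 8.39) in FLX and 3.60 to 6.08 FPKM (median 4.48) in PBS. FLX mice were above all mice of both other groups, with log2 fold changes of 0.82 against Ctrl and 0.72 against PBS (adjusted p = 0.0103 and 0.0499, edgeR), and it overlaps A930033H14Rik on the opposite strand. For most other genes named above, a call in FLX versus Ctrl without one in PBS versus Ctrl is not shown to be an effect of the drug. The log2 fold changes of Arntl, Npas2, Dbp, Nr1d1 and Igfbp1 in FLX versus PBS were 1.07, 1.37, -2.97, -2.10 and -2.96, with adjusted p values of 0.0819, 0.0628, 0.0552, 0.0628 and 0.0870.

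**Figure D5:**
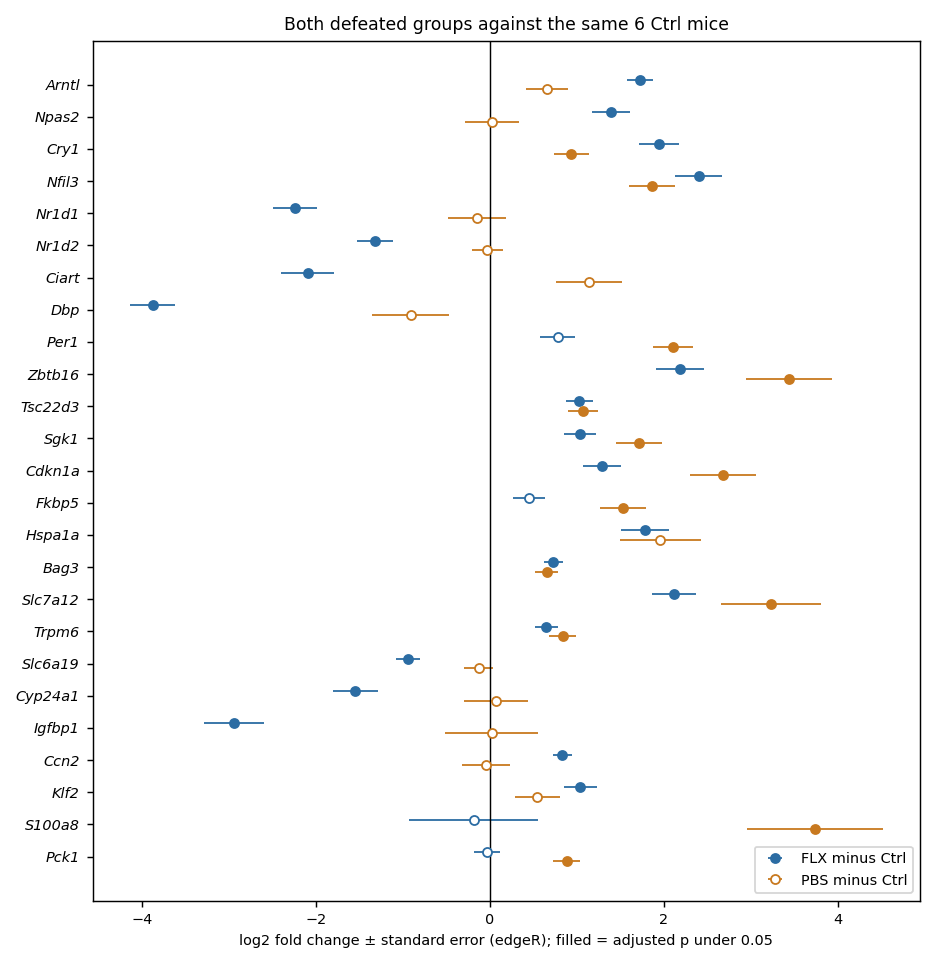
Log2 fold change with its standard error (horizontal axis, edgeR) of 25 named genes in FLX minus Ctrl and in PBS minus Ctrl, filled where the adjusted p is under 0.05. Both comparisons use the same 6 Ctrl mice. Clock genes such as Dbp (-3.88 and -0.91) and Nr1d1 (-2.24 and -0.15) and tubule genes such as Cyp24a1 and Slc6a19 are called in FLX alone, and Zbtb16, Tsc22d3 and Sgk1 in both.

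Of the 116 genes named by rule, 63 were called in FLX versus Ctrl. Most of the rules take only called genes, so that this number follows from the choice. For 50 of the 63 every FLX mouse lay on one side of every Ctrl mouse (part of them were named by a rule that asks for this). In all 12 fits that leave out a mouse 40 of the 63 were called. Over all 680 called genes, 392 had groups apart and 213 were called in all 12 fits.

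Markers of neighbouring tissues varied among mice. The summed level of 8 brown fat genes was 24.5 to 106 FPKM in Ctrl (median 44.8) and 30.5 to 413 in FLX (median 61.1), the highest value in FLX replicate 5, and that of 8 white fat genes was 339 to 425 in Ctrl and 279 to 911 in FLX, again with FLX replicate 5 highest. The white fat list includes Pck1, the gluconeogenesis gene given above, at 267 to 413 FPKM in Ctrl and 254 to 500 in FLX. Pck1 made up most of the white fat sum in every Ctrl and FLX mouse but FLX replicate 5 (387 of 911 FPKM), so that this sum is no measure of fat tissue. In these lists edgeR called 0 genes (1 brown fat gene without Ctrl replicate 3, 3 brown and 2 white fat genes at an unadjusted p under 0.05, 1 and 0 by DESeq2), and the brown fat gene Ucp1 and the white fat gene Adipoq were at medians of 0.670 and 2.67 FPKM in Ctrl and 7.32 and 6.54 in FLX. In FLX versus Ctrl the median log2 fold change was 2.33 over the brown fat genes (8 of 8 above 0). Over the white fat genes it was 1.83 (7 of 8 above 0). In PBS versus Ctrl these medians were 3.26 and 1.65. Red blood cell genes summed to 44.1 to 775 FPKM in Ctrl and 36.8 to 299 in FLX. Their leading genes Hbb-bs and Hba-a1, which the study discusses, had log2 fold changes of -1.49 and -1.41 (adjusted p = 0.227 and 0.244), with 0 of 6 genes called by edgeR or DESeq2 and 3 at an unadjusted p under 0.05. Adrenal genes summed to at most 1.75 FPKM and skeletal muscle genes to at most 1.89 FPKM in these 12 mice. The part of these tissues in the results was not tested.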

How the data were processed

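Right kidneys of 6 Ctrl, 6 FLX and 6 PBS mice were sequenced as poly(A) RNA, and all are used here, although the study set aside 1 PBS mouse that it does not name. The submitters' processing notes name cutadapt 1.9, HISAT2 2.0.4, UMI-tools, StringTie 1.3.4d, DESeq2 and edgeR, and the study's methods give trimming with fastp, alignment to GRCm38 with HISAT-3N and transcript assembly with StringTie. The authors deposited 1 table with an estimated count and an FPKM value per gene and mouse. The counting tool and whether it used strand are not given in the sources used here. Total counts were 48928823 to 79061296 per mouse in Ctrl and FLX.

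Counts, whole numbers as deposited, were filtered with filterByExpr and scaled by TMM over all 18 mice and tested with edgeR 4.0.16 (quasi-likelihood, R 4.3.3). Each comparison was fitted on its own 12 mice, and genes were called at an adjusted p under 0.05 (Benjamini-Hochberg). The standard error (SE, or the value after ±) is the absolute log2 fold change divided by the square root of the F statistic. Levels are deposited FPKM. Alternatives were limma 3.58.1 on log2(FPKM + 0.1), DESeq2 1.42.0, other scaling and filters, and each mouse left out. The test was checked on simulated counts.

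Gene lists and the comparison were chosen with earlier results of these data known. Named genes were the 10 largest rises and falls among called genes with a mean of at least 1 FPKM in FLX or Ctrl and groups apart, the 5 smallest adjusted p, up to 6 genes of that level called alike in each other comparison, up to 4 called genes and the first gene of each list, and genes the study discusses. Samples of a group come from separate mice. A few results are not reported here.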

Additional observations from a re-analysis of the deposited data

Results flagged for a closer look

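Among 234 groups of 6 values (the FPKM of the genes named, the total count, the mitochondrial share and the scaling factor, in Ctrl and in FLX), 26 held 1 mouse far from the others by Dixon's criterion at its 95% critical value, where chance flags about 5%. Ctrl replicate 3 was the distant mouse in 9 of them, at the FPKM given in brackets for Nr1d2 (18.9), Per3 (2.64), Trpm6 (2.00), Slc12a3 (85.5), Tef (37.2), Bag3 (8.50), Vcam1 (1.21), Cpt1a (59.7) and Nr3c1 (11.2). Ctrl replicate 6 was distant for Nfil3 (4.43), Ier2 (11.6), Irf7 (34.4), Cyp24a1 (12.6) and Mt1 (84.2), all in FPKM. Ctrl replicate 4 was distant for Hspa1a (5.62), Aqp2 (357) and Fkbp5 (6.46), and Ctrl replicate 5 for Nphs1 (4.65) and Epo (0.378). In the FLX group, replicate 4 was distant for Vcam1 (2.95), Havcr1 (2.40) and Ddit4 (54.5), replicate 5 for Trpm6 (2.96), Adipoq (103) and Ren1 (98.7), and replicate 3 for Flt1 (2.04). The groups examined share mice, so that these values are not independent.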

How the results depend on the processing

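FLX versus Ctrl gave 680 genes (397 higher, 283 lower). The numbers stayed within 1.5 times under RLE factors, the stricter filter, thinning to equal totals and 1 model over 3 groups without PBS replicate 6. They were 354 (202 higher, 152 lower) with 1 model over all 18 mice, 374 (214 and 160) with no filter on low counts, and 1719 (971 and 748) with DESeq2. With limma on log2(FPKM + 0.01), log2(FPKM + 0.1) and log2(FPKM + 1) they were 1028, 1057 and 1067, of which 811, 826 and 829 were higher. With total counts only 775 were higher. At the threshold of the study 249 were higher, and 769 genes were called in PBS versus Ctrl and 407 in FLX versus PBS, where DESeq2 called 1262 and 482. FLX replicates 1 and 2 alone gave 10 genes (7 and 3) and FLX replicates 3 to 6 alone 117 (63 and 54), with fewer mice in each fit. Leaving out 1 mouse gave 242 to 3454 genes (141 to 1688 higher, 101 to 1766 lower), 102 to 720 in PBS versus Ctrl and 0 to 87 in FLX versus PBS. The cause of these shifts was not tested. Over the same alternatives the 63 called named genes gave 1699 values, of which 1379 kept direction and call, 320 kept direction only and 0 reversed. These genes were picked largely for being called in the main fit, and the alternatives share its mice. With the replicate number as a block, the calls were 134 (83 higher, 51 lower) in FLX versus Ctrl, 86 in PBS versus Ctrl and 0 in FLX versus PBS. The labels do not say whether the numbers mark a batch. Same-numbered FLX and Ctrl mice correlated at -0.115 to 0.130, 1 of 6 pairs above 0.1, and 1 FLX mouse correlated best with its own number. These values cannot show that there was no batch, and FLX replicates 3 to 6 had lower total counts than FLX replicates 1 and 2.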
